A study of Mus musculus with 16 samples.

Results

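Hair keratins and keratin-associated proteins (KAPs) are the structural proteins of the hair shaft and of the sheath that moulds it. The genes described here are every measured target whose mouse symbol, found through the RefSeq accession of the target, begins with Krtap or is one of Krt25 to Krt28, Krt31 to Krt36, Krt71 to Krt75 or Krt81 to Krt86, letter suffixes included. 70 of 23930 targets met this rule, which uses names and no measured value. The study measured RNA of whole skin from 12-week-old mice that lacked Zc3h12a, which encodes the ribonuclease MCPIP1, in keratinocytes, in myeloid cells or in both. All mice carried Zc3h12a(loxP/loxP), so the control mice too had floxed alleles and were not wild type. The EKO mice also carried Krt14Cre(Tg/Wt), the MKO mice LysMCre(Tg/Wt), and the EMdKO mice both Cre alleles, with 4 mice and 4 libraries in each of the 4 groups. The Krt14 promoter is active in basal keratinocytes of the epidermis and of the outer root sheath of the follicle, from which the inner cells of the follicle descend, and the LysM (Lyz2) locus in macrophages, monocytes and neutrophils.

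A hair grows from the bulb of the follicle, where dividing matrix cells differentiate into concentric layers. The type I (acidic) hair keratins Krt31 to Krt36 and the type II (basic) hair keratins Krt81 to Krt84 pair into the filaments of the cortex and cuticle, and KAPs fill the space between the filaments and cross-link them through cysteine. Krt25 to Krt28 and Krt71 to Krt74 are the type I and type II keratins of the inner root sheath, and Krt75 is a keratin of the companion layer between the inner and the outer root sheath. Follicles alternate between growth and rest, and hair keratins and KAPs are known as products of growing follicles.

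The 70 genes held 7 type I hair keratins, 4 type II hair keratins, 4 type I and 4 type II inner root sheath keratins, Krt75 and 50 KAPs. Of the KAPs, 15 belong to the glycine-tyrosine families (Krtap6, Krtap7, Krtap8, Krtap16-3, Krtap19, Krtap20, Krtap21 and Krtap22), and the other 35 are mostly cysteine-rich. In the RefSeq gene table all 11 type I keratins and 21 KAPs lie on chromosome 11, all 9 type II keratins on chromosome 15, all 15 glycine-tyrosine KAPs and 8 other KAPs on chromosome 16, and the last 6 KAPs on chromosomes 10, 7 and 1 (3, 2 and 1 genes). Krt85 and Krt86 were not analysed here. A level is given as CPM, the count of a target relative to its library's total after TMM scaling. Each target is read through its own amplicon, so levels were compared between mice and not between genes.

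The 16 libraries held 6962474 to 12086327 counts on named targets, and 3 counts, the most that a count of 0 allows, corresponded to 0.248 to 0.431 CPM (counting error only). Zc3h12a stood at 19.4 to 30.3 CPM in the control mice and 17.1 to 35.0 CPM in the MKO mice, at 7.07 to 11.7 CPM in the EKO mice and at 4.41 to 5.71 CPM in the EMdKO mice, where the groups with Krt14Cre lay below every mouse without it. Whether the measured amplicon lies in the deleted part is not given. Krt14, the defining keratin of basal keratinocytes, was present in all 16 libraries (651 to 4127 CPM). The labels name separate mice, and no pair of libraries agreed within sampling noise (smallest chi-square per degree of freedom 14.4).

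Levels of hair keratins and KAPs differed widely between mice of the same group. The 70 genes took 5.62, 0.781, 0.209 and 0.0182% of all counts in control mice 1 to 4. They took 0.717, 0.0924, 0.229 and 0.022% in EKO mice 1 to 4, 0.00954, 0.0198, 0.0148 and 0.0669% in MKO mice 1 to 4 and 0.019, 0.0107, 0.889 and 0.0159% in EMdKO mice 1 to 4. Every group held at least 1 mouse at 0.022% or less, and every group but MKO at least 1 mouse at 0.717% or more. Summed over the 70 genes, the level was 58780, 8072, 2034 and 188 CPM in the control mice, 7265, 881, 2185 and 226 in the EKO mice, 104, 190.3, 144 and 665 in the MKO mice and 191, 107, 8813 and 159 in the EMdKO mice. The highest mouse of a group lay 313-fold above the lowest in the control group, 32.2-fold in the EKO group, 6.39-fold in the MKO group and 82.7-fold in the EMdKO group. A single mouse held most of the group's sum: control mouse 1 held 85.1%, EKO mouse 1 68.8%, MKO mouse 4 60.2% and EMdKO mouse 3 95.1%. In whole skin, fewer cells of a type and less RNA per cell cannot be told apart.

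The number of genes detected moved in the same way. Of the 70 genes, 69, 66, 67 and 18 had at least 1 count in control mice 1 to 4, 67, 65, 65 and 45 in EKO mice 1 to 4, 18, 19, 19 and 54 in MKO mice 1 to 4 and 47, 15, 70 and 17 in EMdKO mice 1 to 4. EMdKO mouse 3 was the single mouse with all 70 detected. At the other end, 6 mice (control 4, MKO 1 to 3, EMdKO 2 and EMdKO 4) had 15 to 19 of the genes. Library depth did not follow this order: EMdKO mouse 1, the deepest library with 12086327 counts, had 47 genes detected, and control mouse 1 with 8439653 counts had 69.

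**Figure D1:**
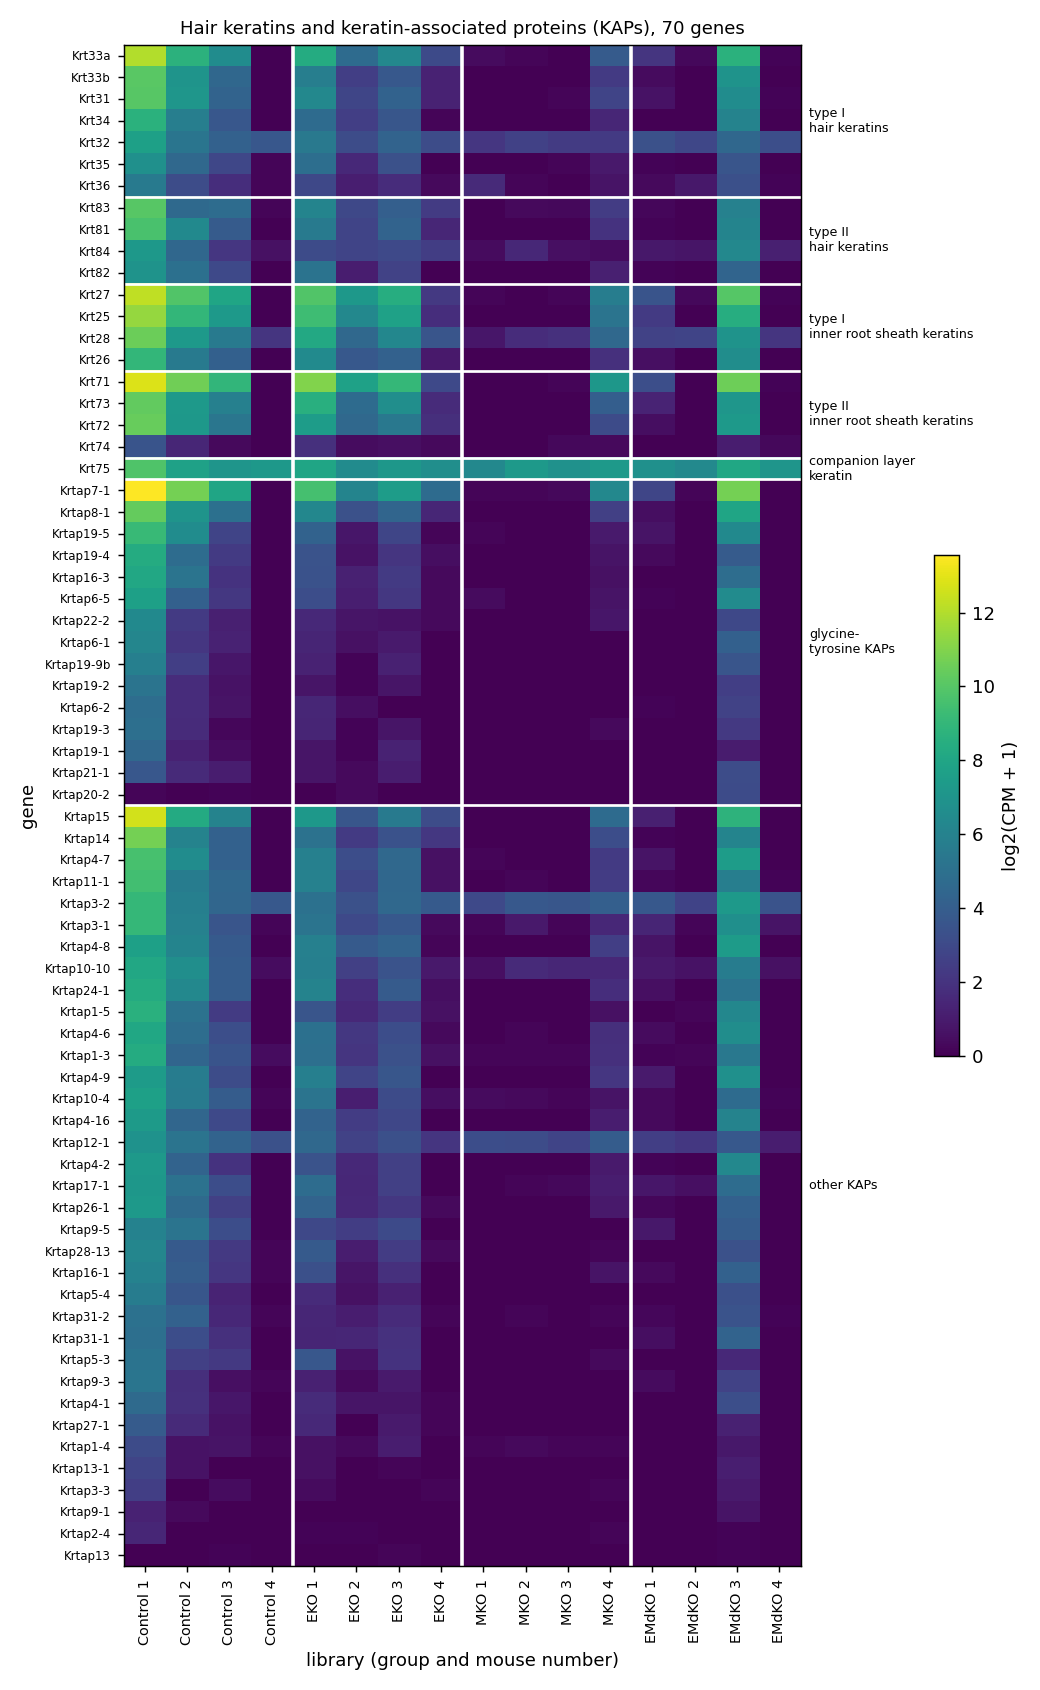
Level of all 70 genes (rows, grouped by role and ordered by mean level within a role) in the 16 libraries (columns), as log2(CPM + 1), with white lines between groups and between roles. Control mouse 1 is bright in nearly every row, control mice 2 and 3, EKO mice 1 and 3 and EMdKO mouse 3 follow, and control mouse 4, MKO mice 1 to 3 and EMdKO mice 2 and 4 are dark except in the rows of Krt75, Krt32, Krtap3-2 and Krtap12-1.

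Among the type I hair keratins, Krt33a had the most counts. Krt33a had 4057, 423, 95 and 0 CPM in the controls (mice 1 to 4), 328, 25.8, 79.7 and 7.36 in the EKO mice, 0.314, 0.126, 0 and 13.9 in the MKO mice and 3.23, 0.242, 407 and 0.105 in the EMdKO mice. Control mouse 1 was highest, and 0 counts in control mouse 4 put the lowest control below every EKO mouse. Its neighbour Krt33b had 1100, 131, 21.7 and 0 CPM in the controls (mice 1 to 4), 54.2, 4.8, 12.3 and 1.45 in the EKO mice, 0, 0, 0 and 4.02 in the MKO mice and 0.332, 0, 125 and 0 in the EMdKO mice. The MKO group had counts of Krt33b in mouse 4 alone. For the whole class the summed level was 6991, 816, 174 and 12 CPM in the controls (mice 1 to 4), 566, 52.5, 152 and 18.4 in the EKO mice, 5.8, 5.31, 4.29 and 31.1 in the MKO mice and 13.8, 7.51, 734 and 8.93 in the EMdKO mice.

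The type II hair keratins Krt83 and Krt81 pair with the type I keratins in the hair cortex. Krt83 had 1036, 24, 26.4 and 0.125 CPM in the controls (mice 1 to 4), 69.7, 6.63, 16 and 4.2 in the EKO mice, 0, 0.253, 0.238 and 4.39 in the MKO mice and 0.166, 0, 62.3 and 0 in the EMdKO mice. Krt81 had 799, 85.4, 13.9 and 0 CPM in the controls (mice 1 to 4), 47.4, 5.84, 19.2 and 1.71 in the EKO mice, 0, 0, 0 and 3.01 in the MKO mice and 0.0829, 0, 68.4 and 0 in the EMdKO mice. For both, the range of the control mice enclosed the EKO mice. Krt81 shares 29.0% of its 100-base stretches with transcripts of other genes, of which Krt86 shares the most, so counts of these genes may be mixed.

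The inner root sheath moulds the growing shaft, and its keratins were read in all 4 groups. Krt27, a type I keratin of all layers of the inner root sheath, had 4894, 932, 253 and 0 CPM in the controls (mice 1 to 4), 929, 148, 355 and 3.68 in the EKO mice, 0.157, 0, 0.119 and 52.2 in the MKO mice and 10.6, 0.242, 1029 and 0.105 in the EMdKO mice. Krt25 had 2740, 513, 157 and 0 CPM in the controls (mice 1 to 4), 642, 78.2, 217 and 2.37 in the EKO mice, 0, 0, 0 and 35.9 in the MKO mice and 3.9, 0, 352 and 0 in the EMdKO mice. Krt71, the type II keratin whose mutations give curly coats, had 7448, 1568, 485 and 0 CPM in the controls (mice 1 to 4), 2017, 212, 528 and 7.09 in the EKO mice, 0, 0, 0.119 and 143 in the MKO mice and 8.45, 0, 1511 and 0.105 in the EMdKO mice. EKO mouse 1 was second to control mouse 1 for Krt71, above control mouse 2, and MKO mouse 4 had more than the other 3 MKO mice together. Krt73 followed Krt71, at 1274, 163, 59.1 and 0 CPM in the controls (mice 1 to 4), 378, 25.8, 105 and 2.23 in the EKO mice, 0, 0, 0 and 15.3 in the MKO mice and 1.57, 0, 137 and 0 in the EMdKO mice. In the mice with few hair keratin counts both Krt71 and Krt73 were at or near 0.

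The glycine-tyrosine KAPs are small proteins of the hair cortex. Krtap7-1 had the most counts of all 70 genes, at 12100, 1688, 252 and 0 CPM in the controls (mice 1 to 4), 762, 68.2, 179.6 and 25.4 in the EKO mice, 0.157, 0.126, 0.238 and 80.1 in the MKO mice and 6.05, 0.121, 1701 and 0 in the EMdKO mice. Krtap8-1 had 1329, 128, 31.3 and 0 CPM in the controls (mice 1 to 4), 75.9, 9.25, 20.8 and 1.71 in the EKO mice, 0, 0, 0 and 5.02 in the MKO mice and 0.414, 0, 254 and 0 in the EMdKO mice. The range of Krtap7-1 from 0 to 12100 CPM held both ends inside the control group. Summed over the 15 genes, the level was 15140, 2015, 306 and 0 CPM in the controls (mice 1 to 4), 895, 84, 224 and 28.4 in the EKO mice, 0.627, 0.126, 0.238 and 88.8 in the MKO mice and 7.54, 0.121, 2239 and 0 in the EMdKO mice. Krtap19-5, of the largest of these families here, had 559.8, 95.9, 5.79 and 0 CPM in the controls (mice 1 to 4), 18.6, 0.785, 6.19 and 0.131 in the EKO mice, 0.157, 0, 0 and 1 in the MKO mice and 0.663, 0, 84.2 and 0 in the EMdKO mice.

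Of the other KAPs, Krtap15 and Krtap14 of chromosome 16 had the most counts. Krtap15 had 6350, 312, 66.9 and 0 CPM in the controls (mice 1 to 4), 151, 11.5, 46 and 8.01 in the EKO mice, 0, 0, 0 and 26.1 in the MKO mice and 1.33, 0, 442 and 0 in the EMdKO mice. Krtap14 had 1699, 66.6, 17.6 and 0 CPM in the controls (mice 1 to 4), 33, 3.92, 9.59 and 3.55 in the EKO mice, 0, 0, 0 and 8.16 in the MKO mice and 0.0829, 0, 67.9 and 0 in the EMdKO mice. Control mouse 1 stood apart from control mouse 2 for both. Krtap4-7, an ultra-high-sulphur KAP, had 777, 97.1, 17.4 and 0 CPM in the controls (mice 1 to 4), 58.9, 8.11, 22.6 and 0.525 in the EKO mice, 0.157, 0, 0 and 3.89 in the MKO mice and 0.663, 0, 181 and 0 in the EMdKO mice. For all 3 of these KAPs EMdKO mouse 3 came second. The class as a whole summed to 13970, 1329, 313 and 23.5 CPM in the controls (mice 1 to 4), 869, 110.0, 276 and 33.5 in the EKO mice, 16.8, 24.5, 19.9 and 99.3 in the MKO mice and 27.8, 10.5, 1931 and 12.8 in the EMdKO mice.

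**Figure D2:**
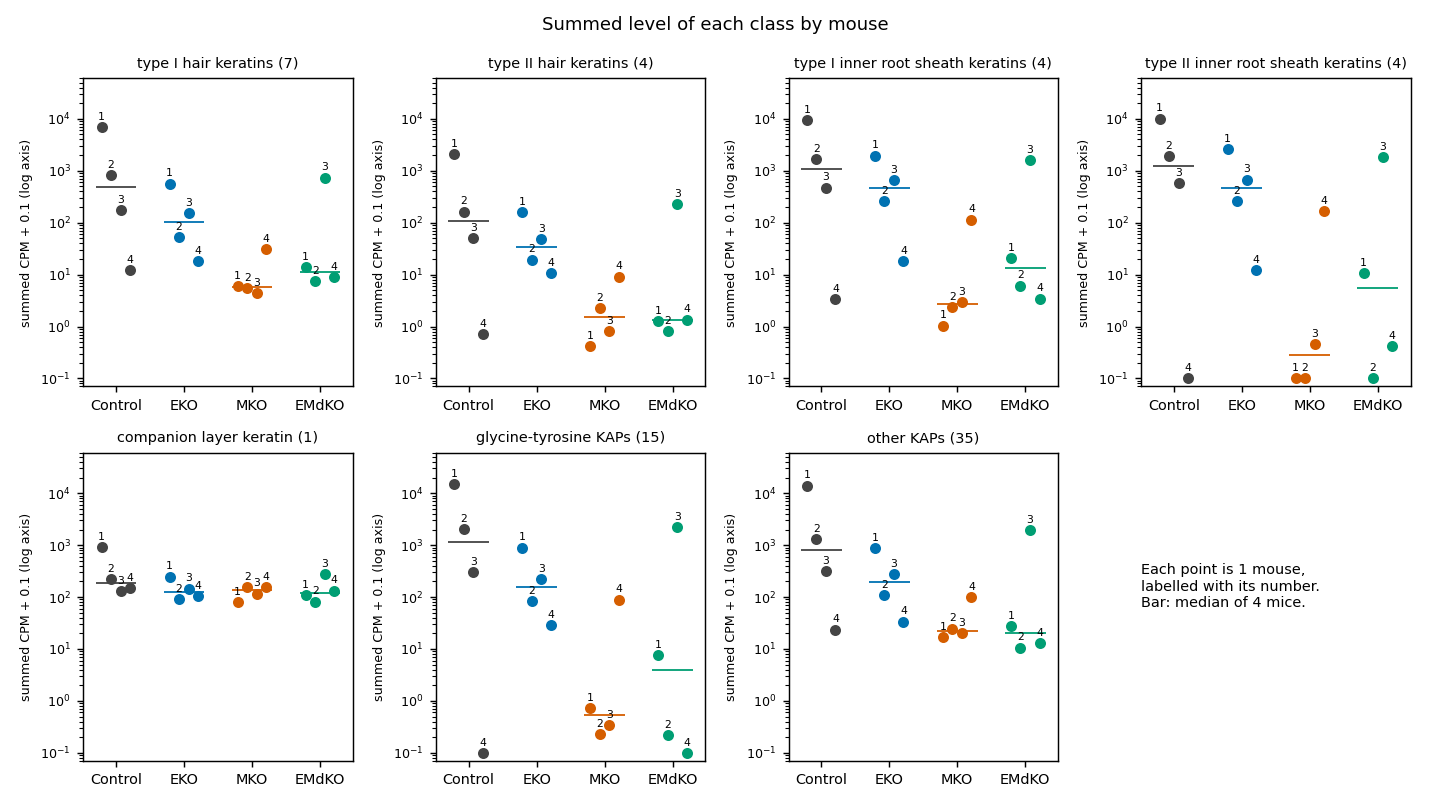
Summed CPM of each class of genes (number of genes in brackets) in each mouse, on a log axis after adding 0.1, with 1 point per mouse labelled by its number and a bar at the median of the 4 mice. In 6 of the 7 panels the mice of a group spread over 1 or more powers of 10 in the control, EKO and EMdKO groups, while Krt75 stays between 79.6 and 905 CPM.

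Krt75 of the companion layer did not share this range. It had 905, 219, 132 and 148 CPM in the controls (mice 1 to 4), 247, 92.1, 145 and 105 in the EKO mice, 79.6, 156, 116 and 156 in the MKO mice and 109.5, 81.7, 272 and 132 in the EMdKO mice. The highest control mouse lay 6.85-fold above the lowest, against 583-fold for the type I hair keratins. In the 6 mice with the fewest genes detected Krt75 made up 76.5% to 83.2% of all hair keratin and KAP CPM, against 1.54% in control mouse 1. Krt32, a type I keratin of the hair cuticle, Krtap3-2 and Krtap12-1 were the other genes with at least 10 counts in all 16 libraries. Krtap12-1 had 119.8, 35.8, 18.7 and 9.37 CPM in the controls (mice 1 to 4), 22.7, 5.41, 9.1 and 3.28 in the EKO mice, 8.31, 7.96, 5.84 and 14.4 in the MKO mice and 4.81, 3.51, 12.3 and 1.16 in the EMdKO mice. Krtap3-2 had 523, 56.5, 20.9 and 12.5 CPM in the controls (mice 1 to 4), 32.5, 9.33, 23.1 and 13.1 in the EKO mice, 7.05, 12.5, 11.6 and 16.3 in the MKO mice and 12.2, 5.57, 159 and 10.2 in the EMdKO mice. These 2 KAPs kept 1.16 CPM or more in mice where most KAPs had no count.

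The question of the group comparisons was whether loss of MCPIP1 in keratinocytes, in myeloid cells or in both changed these genes. Differences between group means were fitted with edgeR's quasi-likelihood test over 13633 targets that passed its filter on low counts, and p-values were adjusted over all of them (Benjamini-Hochberg), with 0.05 as the threshold. 59 of the 70 genes passed that filter. The 11 that did not were Krt74, Krtap1-4, Krtap2-4, Krtap3-3, Krtap9-1, Krtap13, Krtap13-1, Krtap19-1, Krtap19-2, Krtap20-2 and Krtap21-1. The filter keeps genes that are high in some mice, so the fold changes of the 59 genes describe those genes and not all 70. The 3 comparisons with control share the same 4 control mice.

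In EKO against control skin no hair keratin or KAP passed the threshold (0 of 59 in edgeR, background 0.0% of all tested targets). DESeq2 (background 0.404%) and limma-voom with sample weights (0.0293%) also called 0, and 18 genes had an unadjusted p under 0.05 in edgeR, against 6.9% of all targets, and 0 in the exact permutation test. Log2 fold changes of all 59 were negative (54.2% of all targets were), with a median of -2.91 against -0.03 over all tested targets. The glycine-tyrosine KAPs had a median of -4.38 and the type II inner root sheath keratins -1.78. None of the 59 had groups that did not overlap (2.26% of all targets had). Without control mouse 1 the median was -0.64, 50 of 59 were negative and no gene had an unadjusted p under 0.05. For Krt71 the log2 fold change was -1.78 ± 2.38 (SE), adjusted p = 0.882 in edgeR, and an exact permutation test on log2 CPM, two-sided over 70 assignments of 4 against 4 mice, gave p = 0.943.

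In MKO against control skin the counts were lower by more, and no gene was called by edgeR (0 of 59, background 0.0293%). In edgeR 58 of the 59 genes, all lower, had an unadjusted p under 0.05, against 9.58% of all targets, while the exact permutation test on log2 CPM gave such a p to 2 of 59 (median p = 0.143). The median log2 fold change was -7.58, against 0.0 over all targets, and -7.31 with the 9 genes that had no count in any MKO mouse set to the bound that 3 counts over the group allow. Without the filter, 70 of 70 log2 fold changes were negative, with a median of -7.39. DESeq2 called 18 genes lower (background of all calls 0.807%), Krt32, Krt33a, Krt28, Krt84 and 14 KAPs, and limma-voom called 0 (background 0.0%). Of these KAPs, Krtap4-1, Krtap5-4, Krtap21-1 and Krtap19-9b had no count in any MKO mouse. Their DESeq2 log2 fold changes of -24.22 to -22.15 are not measured sizes. Without control mouse 1 the median was -5.07 with 35 unadjusted p under 0.05, and without MKO mouse 4 it was -10.51. 2 genes, Krt32 and Krtap9-3, the same 2 with a permutation p under 0.05, had every MKO mouse below every control mouse. Of all targets 3.08% had groups that did not overlap, so this share is near the background. Krtap9-3 had 0 counts in every MKO mouse and 1 count in control mouse 4, a gap within counting error. Control mouse 4, at 187.5 CPM summed, lay within the range of the MKO mice (104 to 665 CPM).

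In EMdKO against control skin no gene passed in edgeR (0 of 59, background 0.0293%), and 13 had an unadjusted p under 0.05 (8.16% of all targets), against 0 in the exact permutation test. The median log2 fold change was -2.85, with all 59 negative (52.9% of all targets). DESeq2 called Krtap12-1 lower (background of all calls 0.502%), and limma-voom called 0 (background 0.0587%). Krtap12-1 had a log2 fold change of -3.06 ± 0.80 (SE), with an adjusted p of 0.339 in edgeR and 0.0418 in DESeq2. Without EMdKO mouse 3 the median was -9.23 and 61 of 61 genes had an unadjusted p under 0.05, still with 0 called. Without control mouse 1 it was -0.60, with 38 of 59 negative. No gene had groups that did not overlap (3.67% of all targets had).

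**Figure D3:**
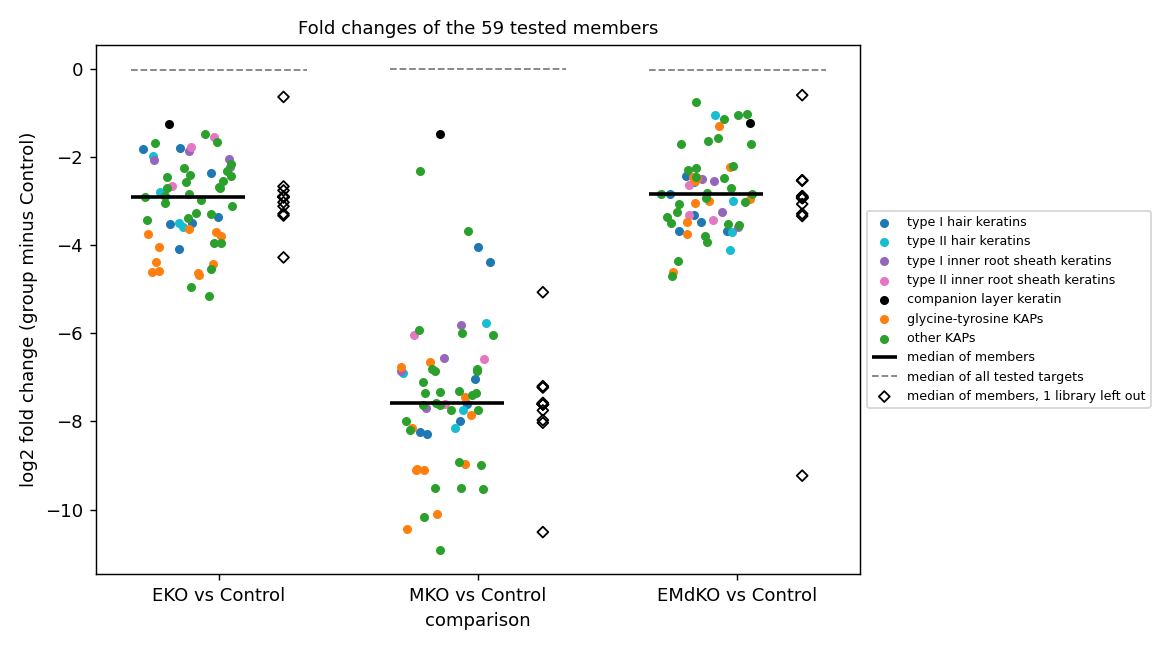
Log2 fold change of the 59 tested genes against control in each knockout group (points coloured by class, with small random sideways shifts), their median (black line), the median of all 13633 tested targets (dashed line) and the median of the genes with 1 library left out in turn (diamonds). Each cloud lies below 0, and the diamonds run from -4.28 to -0.64 for EKO, -10.51 to -5.07 for MKO and -9.23 to -0.60 for EMdKO.

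The comparisons among knockouts gave no call in edgeR either. EMdKO against EKO skin had 0 of 59 called (background 0.0147%) and 0 with an unadjusted p under 0.05 (6.59% of all targets), with a median of 0.44 that became -6.22 without EMdKO mouse 3. EMdKO against MKO skin had 0 called (background 0.00734%), 20 with an unadjusted p under 0.05 (7.42%) and a median of 4.45, which became -1.59 without EMdKO mouse 3. EKO against MKO skin had 0 called (background 0.858%), 13 with an unadjusted p under 0.05 (16.9%) and a median of 4.40, which stayed between 3.13 and 7.55 with 1 library left out. DESeq2 called 0 genes in EMdKO against EKO skin (background 0.0293%), 4 higher in EMdKO than in MKO skin (0.909%) and the same 4 higher in EKO than in MKO skin (4.36%). The exact permutation test gave an unadjusted p under 0.05 to 0, 1 and 6 genes in these 3 comparisons. With 4 against 4 mice such a p needs groups that do not overlap, as 10.3% of all targets had in EKO against MKO skin. limma-voom called 0 in all 3, against backgrounds of 0.0147%, 0.0587% and 11.7%. Groups did not overlap for 0 genes in EMdKO against EKO skin (5.57% of all targets), and for Krt32 alone in EMdKO against MKO skin (5.99%). The 4 genes that DESeq2 called were Krtap4-1, Krtap5-4, Krtap21-1 and Krtap19-9b, which had no count in any MKO mouse. Their DESeq2 log2 fold changes were 21.23 to 21.68 in EMdKO and 19.27 to 20.21 in EKO against MKO skin. With a group at 0 counts the size of these values is not measured. Krtap21-1 did not pass the edgeR filter, so edgeR did not test it.

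The difference between the double knockout and the sum of both single knockouts (EMdKO minus EKO minus MKO plus control, on the log2 scale) was also tested. edgeR called 0 of 59 (background 0.0%), and 48 genes had an unadjusted p under 0.05 against 3.41% of all targets, with a median of 7.52. Without EMdKO mouse 3 the median was 1.25 and 1 of 61 genes had an unadjusted p under 0.05. DESeq2 called 4 genes (background 0.0195%), Krtap4-1, Krtap5-4, Krtap21-1 and Krtap19-9b again, and limma-voom called 0 (background 0.0%). DESeq2 gave these 4 genes log2 values of 24.11 to 26.14. They had no count in any MKO mouse, so the size of these values is not measured. The calls therefore cannot settle whether these genes departed from the sum. Krt84 had 7.52 ± 2.26 (SE), with an adjusted p of 0.999 in edgeR.

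Krt32 had the smallest p of the 59 genes in MKO against control skin. Krt32 had 207, 37.3, 17.7 and 11.8 CPM in the controls (mice 1 to 4), 44.2, 7.85, 18.8 and 7.75 in the EKO mice, 3.45, 5.05, 4.05 and 4.02 in the MKO mice and 9.28, 6.42, 21.8 and 8.61 in the EMdKO mice. The MKO mice, 3.45 to 5.05 CPM, lay below all 12 other mice, of which EMdKO mouse 2 was nearest with 6.42 CPM. In MKO against control skin its log2 fold change was -4.04 ± 0.86 (SE), with adjusted p = 0.331 in edgeR and 0.000784 in DESeq2. The exact permutation test, two-sided, gave p = 0.0286 against control, EKO and EMdKO mice alike, which is the smallest p that 4 against 4 mice can give. Adjusted over all tested targets those permutation p-values were 0.853, 0.277 and 0.477. In EKO against MKO skin the adjusted p in edgeR was 0.183, and leaving out control mouse 1 gave 0.0489.

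Krt84, a type II hair keratin also known from the tongue, had the lowest correlation with the set among the type II hair keratins. Krt84 had 147, 21.7, 3.36 and 0.5 CPM in the controls (mice 1 to 4), 7.43, 5.76, 6.92 and 4.6 in the EKO mice, 0.314, 1.9, 0.477 and 0.377 in the MKO mice, 80.5 in EMdKO mouse 3 and 0.727 to 1.26 in the other 3 EMdKO mice. All 4 EKO mice lay above all 4 MKO mice, as was so for 6 of the 59 genes (Krt32, Krt84, Krtap1-5, Krtap4-1, Krtap28-13 and Krtap31-2), a share near the 10.3% of all targets. For Krtap1-5, Krtap4-1, Krtap28-13 and Krtap31-2 the lowest EKO mouse had 4, 1, 2 and 1 counts. The highest MKO mouse had 4, 0, 1 and 1, so these gaps lie within counting error. In EKO against MKO skin the adjusted p of Krt84 was 0.407 in edgeR and 0.0344 in a fit of those 2 groups alone.

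The 3 mice next below control mouse 1 had like sums and differed in make-up. Control mouse 2, EKO mouse 1 and EMdKO mouse 3 had 8072, 7265 and 8813 CPM over the 70 genes. Glycine-tyrosine KAPs made up 25%, 12.3% and 25.4% of that sum, and type II inner root sheath keratins 23.3%, 35.5% and 20.5%. Single genes set most of these shares. Krtap7-1 held 1688 of 2015, 762 of 895 and 1701 of 2239 CPM of its class in these mice, and Krt71 1568 of 1882, 2017 of 2576 and 1511 of 1803. Over the 60 genes with at least 10 counts in both, EMdKO mouse 3 was higher than EKO mouse 1 for all 11 glycine-tyrosine KAPs, with a median log2 ratio of 1.74, and for none of the 4 type II inner root sheath keratins, with a median of -0.82. The largest ratio was that of Krtap31-1 at 3.53, and the lowest that of Krtap5-3 at -2.57. Glycine-tyrosine KAPs made up 9.54% to 12.6% of the sum in all 4 EKO mice, against 15% to 25.8% in control mice 1 to 3, 0% in control mouse 4 and 13.4% in MKO mouse 4. The rest of the make-up differed among the EKO mice: type II inner root sheath keratins made up 29.6% to 35.5% in EKO mice 1 to 3 and 5.36% in EKO mouse 4, where Krt75 held 46.4%. These are single libraries, and no test of this difference was made.

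**Figure D4:**
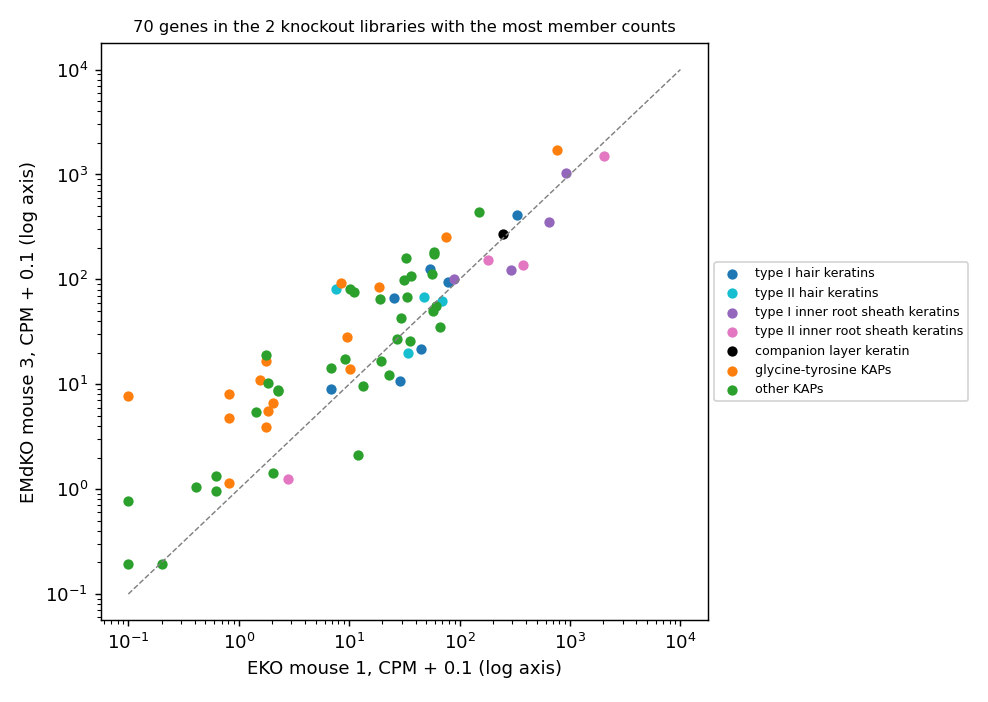
CPM of each of the 70 genes in EMdKO mouse 3 (vertical) against EKO mouse 1 (horizontal), both on log axes after adding 0.1, coloured by class, with a dashed line of equality. The 11 glycine-tyrosine KAPs with at least 10 counts in both mice lie above the line, and the type II inner root sheath keratins lie below it.

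For 68 of the 70 genes control mouse 1 was the highest of the 16 mice. Krtap20-2 was an exception, with 7.61 CPM in EMdKO mouse 3 and at most 0.262 CPM in any other mouse, control mouse 1 included (0.124 CPM). Krtap13 was the other, with 0.121 CPM in EKO mouse 3 at most, and it was the single gene under 10 counts in all libraries. Second place fell to EMdKO mouse 3 for 36 genes, to control mouse 2 for 18, to EKO mouse 1 for 12 and to other mice for 4. All 4 type II inner root sheath keratins had EKO mouse 1 second, and 10 of 15 glycine-tyrosine KAPs and 20 of 35 other KAPs had EMdKO mouse 3 second. Krtap6-5 was among these, at 206, 16.8, 3.64 and 0 CPM in the controls (mice 1 to 4), 8.36, 1.22, 3.64 and 0.263 in the EKO mice, 0.314, 0, 0 and 0.627 in the MKO mice and 0.0829, 0, 92.5 and 0 in the EMdKO mice. Krtap4-2 was another, at 159, 18.7, 2.9 and 0 CPM in the controls (mice 1 to 4), 10.1, 1.92, 4.97 and 0 in the EKO mice, 0, 0, 0 and 1 in the MKO mice and 0.0829, 0, 80.9 and 0 in the EMdKO mice. For both, EMdKO mouse 3 alone stood high in its group.

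The genes moved together from mouse to mouse. Pearson's r of a gene's log2 CPM with the mean of the other tested genes over the 16 libraries ran from 0.804 to 0.997, with a median of 0.975, and was at least 0.9 for 54 of the 59 genes. Without the farthest libraries, control mouse 1 and EMdKO mouse 3, it was at least 0.9 for 50. The genes share these libraries and their scaling, so r is a description. The lowest values were those of Krt75 (0.804), Krtap12-1 (0.808), Krt32 (0.878), Krtap3-2 (0.891) and Krt84 (0.899).

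Promoters of these genes shared sequence that the naming rule did not use. RefSeq promoter windows (build GRCm38.p6, 250 bases before to 50 after the start) were found for 60 of the 70 genes, and 4 short motifs were searched. TATAAA, the TATA box core, was found on either strand in 48 of the 60 windows and in 13.6% of all 32851 windows. On the coding strand with its first base 20 to 40 bases before the start it was found in 33 of 60 and in 1.99% of all windows. By class this was 6 of 14 windows of glycine-tyrosine KAPs and 0 of 2 of type II hair keratins, so Krt75 was not alone in lacking it. GGGCGG, the GC box core, on either strand, was found in 1.67% of the 60 windows, that of Krt75 alone, and in 35.7% of all windows. CTTTGT and CTTTGA, cores of the LEF/TCF motif that bind the factor Lef1 of the hair cortex, were found on either strand in 28.3% and 31.7%, against 18.7% and 16% of all windows, and CTTTGT in 9 of the 14 glycine-tyrosine KAP windows. A match is a description of letters and shows no binding.

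The 7 stretches printed here are the 100 bases before the RefSeq start, 5′ to 3′ on the coding strand. They were chosen to show the shared TATAAA with its first base 20 to 40 bases before the start (capitals). It is shown in an inner root sheath keratin of each type, the hair keratin Krt32 and KAPs of 3 families. In Krt75, which lacks it, capitals mark the GC box (CCGCCC on this strand). Another TATAAA in Krt32, farther from the start, is left in small letters. The first base of the TATAAA in capitals lies 30 bases before the start in Krt25, 40 in Krt71 and 29 in Krt32. It lies 31 bases before in Krtap4-7, 29 in Krtap8-1 and 32 in Krtap3-2, and the GC box of Krt75 lies 52 bases before. Only exact letters were searched, and in Krt75 the similar letters cataaa lie between the GC box and the start.
Krt25, chr11:99322952-99323051, minus strand: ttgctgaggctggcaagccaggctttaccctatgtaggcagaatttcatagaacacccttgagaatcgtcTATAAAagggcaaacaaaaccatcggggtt
Krt71, chr15:101743098-101743197, minus strand: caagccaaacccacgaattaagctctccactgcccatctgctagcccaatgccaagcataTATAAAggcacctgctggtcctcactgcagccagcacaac
Krt32, chr11:100088270-100088369, minus strand: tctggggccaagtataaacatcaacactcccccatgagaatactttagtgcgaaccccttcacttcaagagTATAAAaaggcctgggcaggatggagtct
Krtap4-7, chr11:99644090-99644189, minus strand: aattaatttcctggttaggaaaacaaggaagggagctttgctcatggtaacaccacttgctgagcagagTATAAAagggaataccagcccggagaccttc
Krtap8-1, chr16:89487953-89488052, minus strand: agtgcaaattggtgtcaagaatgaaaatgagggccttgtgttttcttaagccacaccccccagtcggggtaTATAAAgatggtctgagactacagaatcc
Krtap3-2, chr11:99556854-99556953, minus strand: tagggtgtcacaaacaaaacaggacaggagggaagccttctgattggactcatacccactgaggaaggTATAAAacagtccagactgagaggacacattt
Krt75, chr15:101573905-101574004, minus strand: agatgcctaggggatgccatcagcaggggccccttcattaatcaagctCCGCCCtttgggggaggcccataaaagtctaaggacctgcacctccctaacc

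Targets outside the set that were most like it were chosen by r with the mean of the 59 genes over the 16 libraries. 79 of 13574 other tested targets had r of at least 0.9. The 12 highest had r from 0.986 to 0.998, and 11 of them had a symbol: Gm10229, Gprc5d, Gm11559, Gm11562, Gm11567, Tgm6, Calhm4, Krt87, Gm41515, Ly6g6d and Gm11595. Krt87 is a hair keratin that the naming rule leaves out. Gm10229, Gm11559 and Gm11562 share 100-base stretches with transcripts of Krtap6-1, Krtap9-1 and Krtap2-4, in that order. The part of such stretches in their r was not tested. Gprc5d, a receptor known from the hair cortex, had 548, 112, 14.9 and 0 CPM in the controls (mice 1 to 4), 61.6, 4.45, 15.1 and 0.657 in the EKO mice, 0, 0, 0 and 2.89 in the MKO mice and 0.414, 0, 96.9 and 0.105 in the EMdKO mice. 1 target, the ion transporter Slc12a2, had r of -0.9 or lower, with 99.3 CPM in control mouse 1 and 208 CPM in EMdKO mouse 4.

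Other proteins of the hair shaft and sheath moved with the set. Of 14 listed (Tchh, Tchhl1, S100a3, Padi1, Padi3, Tgm3, Dsg4, Gprc5d, Crym, Psors1c2, Cdsn, Prr9, Krt39 and Krt40), 13 were tested, 0 were called against control in any knockout in edgeR (1, 12 and 3 with an unadjusted p under 0.05 in EKO, MKO and EMdKO), and the medians were -2.27 in EKO, -6.40 in MKO and -2.44 in EMdKO. Tchh, the trichohyalin that hardens the inner root sheath, had r = 0.976 and had 14700, 3300, 682 and 3.5 CPM in the controls (mice 1 to 4), 2750, 275, 609 and 21.7 in the EKO mice, 2.19, 6.45, 3.1 and 297 in the MKO mice and 31.1, 3.27, 4370 and 2.42 in the EMdKO mice. Padi3, the enzyme that citrullinates trichohyalin, had r = 0.982, and Dsg4, the desmoglein of the hair cortex, r = 0.975. Cdsn, also made by the epidermis, had r = 0.246.

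The transcription factors of the follicle differed less between mice than the proteins. All 14 listed were tested, edgeR called 0 against control (2, 7 and 6 with an unadjusted p under 0.05), and their medians were -0.67, -0.83 and -0.81 in EKO, MKO and EMdKO. Hoxc13, which switches on hair keratin genes, had 17.6, 6.19, 1.49 and 0.375 CPM in the controls (mice 1 to 4), 7.54, 0.872, 2.43 and 0.657 in the EKO mice, 0.314, 0.758, 1.43 and 1.76 in the MKO mice and 1.16, 0.485, 5.33 and 0.63 in the EMdKO mice. Its order of mice was near that of the keratins, with r = 0.928, and Msx2 (0.935), Dlx3 (0.908) and Lef1 (0.887) were alike. Foxn1, the factor missing in nude mice, had r = 0.838, and Gata3 of the inner root sheath had r = -0.004.

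Pigment genes and growth signals are given beside the set because hair pigment cells and signalling cells lie in the same bulb. For 12 melanocyte genes the summed level was 56.7 to 681 CPM in the control mice, 65.8 to 248 in the EKO mice, 64.0 to 95.6 in the MKO mice and 55.4 to 129.7 in the EMdKO mice. Tyrp1, an enzyme of melanin synthesis, had 227, 49.9, 23.9 and 1 CPM in the controls (mice 1 to 4), 64.4, 3.31, 31.8 and 7.62 in the EKO mice, 2.04, 0.758, 2.98 and 8.78 in the MKO mice and 5.8, 5.45, 17 and 2.42 in the EMdKO mice, with r = 0.91. EMdKO mouse 3, second to control mouse 1 in the summed set, had less Tyrp1 than 5 other mice. For 22 growth signal genes the summed level ran from 770 to 1281 CPM over all 16 mice, and r of the 19 tested ran from -0.668 (Fgf18) to 0.845 (Shh), with a median of 0.22 and 5 below 0. Shh, the growth signal of the bulb and the highest of these in r, was chosen after its values were seen and had 5.2, 2.16, 1.96 and 0.125 CPM in the controls (mice 1 to 4), 7.95, 0.349, 1.94 and 0.131 in the EKO mice, 0.157, 0, 0.238 and 3.14 in the MKO mice and 0.331, 0.121, 1.05 and 0.21 in the EMdKO mice. Here EKO mouse 1 was highest and EMdKO mouse 3 lower than 6 other mice. Between 0 and 5 of the 12 melanocyte genes were at 0 in a library, and the part of pigment cells in the differences was not tested.

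Lists of other skin cells had lower r with the set than hair shaft proteins had. The 12 skeletal muscle genes all had negative r (median -0.363), and their summed level was lowest in EMdKO mouse 3 (25240 CPM) and control mouse 1 (27560 CPM), the 2 mice highest in the set, and highest in MKO mouse 1 (122100 CPM), the lowest in the set. EKO mouse 1, with 7265 CPM in the set, broke this order with 69540 CPM of muscle genes, above every mouse but MKO mouse 1. Without control mouse 1 and EMdKO mouse 3, r of the muscle genes ran from -0.57 (Myh1) to 0.119 (Actn3). Fibroblast genes had a median r of -0.037 and adipocyte genes -0.008. In the control group both lists were lowest in mouse 1, with 22260 CPM against 38440 to 46260 CPM for fibroblasts and 3189 against 6274 to 7545 CPM for adipocytes. Krt15, a keratin of the bulge and the basal layer, had r = -0.792, the lowest of 9 tested genes of the outer root sheath and stem cells. These ran up to 0.751 (Lgr5), with a median of 0.08 and 3 below 0, so Krt15 does not stand for them. Krt14 had r = -0.113, among 7 genes of the interfollicular epidermis that ran from -0.532 (Lor) to 0.445 (Flg), with a median of -0.232. Krt15 had 598, 720.0, 1840 and 2280 CPM in the controls (mice 1 to 4), 1070, 1000, 1440 and 1180 in the EKO mice, 1140, 1610, 1710 and 1490 in the MKO mice and 1530, 1880, 709 and 1720 in the EMdKO mice. Its lowest value was in control mouse 1 and its highest in control mouse 4. Cell cycle genes had r from 0.345 to 0.823 (17 genes), of which 3 (Ccnb2, Cdc20 and Plk1) were higher in EKO than in MKO skin. In that comparison Flg, S100a8, S100a9 and Elovl3 were also higher and Cd79b lower. These 8 calls in edgeR (background 0.858% of all tested targets) depended on single libraries. They became 0 without EKO mouse 2, EKO mouse 3 or MKO mouse 3, 1 without MKO mouse 1 or 2, 4 without EKO mouse 4 or EMdKO mouse 1, 17 without EKO mouse 1 and 20 without control mouse 1. With the mouse number as a block 3 were called, with DESeq2 25 (background 4.36%) and with limma-voom 37 (background 11.7%). Against control edgeR and limma-voom called no gene of the 13 lists. DESeq2 called 1 in EKO, 11 in MKO and 1 in EMdKO skin, against backgrounds of 0.404%, 0.807% and 0.502% of all targets. Without EKO mouse 1 edgeR called 4 in EKO skin. The part of these cells in the differences was not tested.

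**Figure D5:**
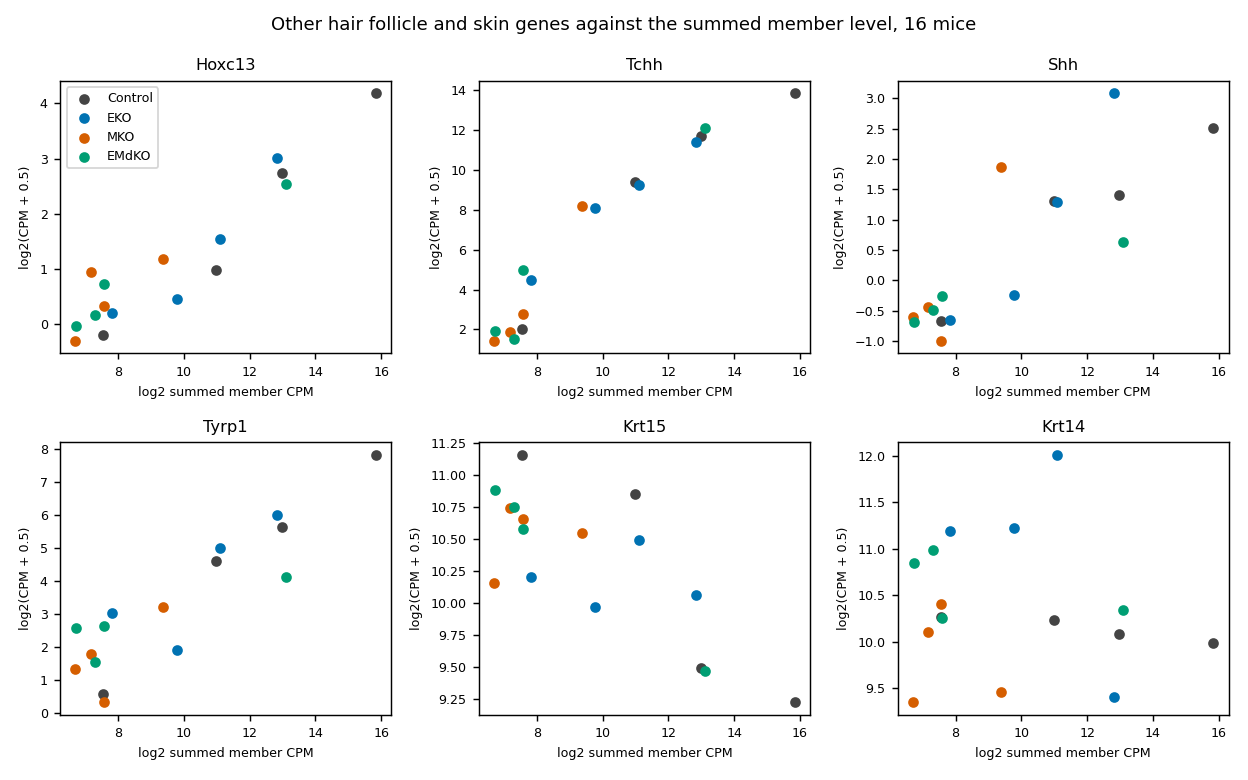
Level of 6 other genes, log2(CPM + 0.5), against the log2 summed CPM of the 70 genes in the 16 mice, coloured by group. Tchh and Hoxc13 climb with the sum, Shh and Tyrp1 do so less evenly, Krt15 falls from 2280 CPM in control mouse 4 to 598 CPM in control mouse 1, and Krt14 shows no such order.

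Near-identical copies limit what single genes show. In GENCODE vM21 transcripts 27 of the 70 genes (9 keratins and 18 KAPs) shared at least 1 stretch of 100 bases with a transcript of another gene, and none shared 50% or more of its stretches. The highest share, over all other genes together, was 38.9% for Krtap10-10, followed by Krtap3-3 (36.7%) and Krtap2-4 (35.9%). The other gene that shared the most with them was Gm2696, Krtap3-2 and Gm11562, in that order. Krt71, Krt75, Krt32, Krtap7-1 and Krtap12-1 shared none. The positions of the amplicons are not given, so whether they lie in shared stretches is unknown.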

How the data were processed

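Total RNA of snap-frozen whole skin, homogenized in Fenozol, was profiled with the Ion AmpliSeq Transcriptome Mouse Gene Expression Kit, per the labels' protocols. The deposited values are raw counts per target. HTSeq 0.6.0 and DESeq2 1.18.1 are named in the submitters' processing notes, and the aligner, genome build and annotation are not given in the sources used here. Summary lines that name no target (3.111% to 5.252% of a library) were left out. Of 23930 targets, 22562 received a symbol, 22452 through RefSeq accessions and 110 through GENCODE. The 70 genes and the 13 gene lists were chosen with earlier results of these data known.

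All 16 libraries were fitted in edgeR 4.0.16 (R 4.3.3; default filterByExpr, TMM, quasi-likelihood F test, 1 mean per group), with Benjamini-Hochberg adjustment over 13633 targets and a threshold of 0.05. CPM uses TMM-scaled totals, and log2 CPM a prior count of 2. Exact permutation tests used all 70 assignments, with 0.0286 as the smallest p. The genes named were Zc3h12a, Krt14 and Lyz2, the 2 highest of each keratin class, the highest of each of the 8 highest Krtap families, the 3 smallest p-values of each comparison, the 5 lowest correlations with the other tested genes, in each list the called genes and the 2 with the smallest p, and the 12 other targets most like the set with the 6 least like it. Other genes printed with values were chosen after their values were seen. Alternatives were DESeq2 1.42.0, limma-voom (limma 3.58.1) with sample weights, RLE scaling, no filter, at least 1 CPM in 4 libraries, a fit of only the groups compared, mouse number as a blocking factor, and leaving out each library. On counts simulated for EKO against control (13540 targets, dispersion 0.1) edgeR recovered 44% of 50 genes changed by 1 log2 unit and 96% of those changed by 2, with 10 false calls of 180, and DESeq2 made 27 false calls of 198. This does not describe recovery for the 59 genes, whose standard errors in that comparison had a median of 1.71 log2 units.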

Additional observations from a re-analysis of the deposited data

Results flagged for a closer look

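A mouse far from the other 3 of its group was looked for in the log2 CPM of 28 of the 70 genes and of the 7 summed classes. The 28 genes were picked by level, p-value or correlation in these same data, as given above for the genes named. The gap to the nearest neighbour, divided by the range of the group, was set against the 95% critical value of Dixon for 4 mice. 34 of 140 groups examined passed that limit. In 16 of them the other 3 mice had no count, so the ratio is 1.0 by construction for any count in the fourth and says nothing of how far that mouse lies. The other 18 had counts in more than 1 mouse. Chance alone gives about 1 in 20 groups where values are continuous, and the genes share the same mice, so the number is not set against that rate. In all of them the mouse that stood apart was the highest, MKO mouse 4 in the MKO group and EMdKO mouse 3 in the EMdKO group.

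In the MKO group the ratio was 1.0 for Krt33b, Krt81, Krt25, Krt73, Krtap15, Krtap14, Krtap8-1, Krtap1-5, Krtap22-2, Krtap19-4, Krtap5-3, Krtap4-2 and Krtap28-13, whose other MKO mice had no count. Some of these rest on very few counts, such as Krtap28-13 (0.125 CPM) and Krtap5-3 (0.251 CPM). It was below 1 for Krt27 (0.903), Krt71 (0.934) and Krtap7-1 (0.949), and for the summed type I hair keratins (0.855), type II inner root sheath keratins (0.907) and glycine-tyrosine KAPs (0.882). MKO mouse 4 had 143 CPM of Krt71 and 80.1 CPM of Krtap7-1.

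In the EMdKO group the ratio was 1.0 for Krtap22-2, Krtap5-3 and Krtap28-13, again with no count in the other 3 mice. It was below 1 for Krt33b (0.857), Krt83 (0.902), Krt81 (0.945), Krtap14 (0.945), Krtap8-1 (0.852), Krtap1-5 (0.926), Krtap31-2 (0.857), Krtap6-5 (0.948), Krtap4-2 (0.947) and Krt84 (0.9), and for the summed type I hair keratins (0.872) and type II hair keratins (0.931). EMdKO mouse 3 had 254 CPM of Krtap8-1 and 125 CPM of Krt33b. No control or EKO group passed the limit.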

How the results depend on the processing

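The count of called genes was 0 in all 7 comparisons in edgeR and stayed 0 under limma-voom, RLE scaling, no filter, the CPM filter and each left-out library, except as given here. DESeq2 called 18 genes in MKO against control, 1 in EMdKO against control, 4 in EMdKO against MKO, 4 in EKO against MKO and 4 in the interaction. In EKO against MKO the compared groups alone gave 1 call (Krt84), and leaving out 1 library gave 0 to 1 (Krt32 without control mouse 1). Krtap6-5 in EMdKO against EKO (log2 2.77) became -2.76 in limma-voom and ran from -6.16 to 3.76 with 1 library left out, negative without EMdKO mouse 3. In EMdKO against MKO it ran from -2.36 to 7.81. Krtap4-2 in EMdKO against EKO (2.24) became -2.61 in limma-voom and ran from -6.5 to 3.13. The cause in limma-voom was not tested. Deviations of same-numbered mice from their group means had r from -0.543 to 0.61 (median -0.106), over 0.1 in 7 of 24 pairs. For mice of other numbers the median was 0.0131, with 32 of 72 pairs over 0.1. The labels do not say whether the numbers pair the mice, and these values cannot settle it. With the mouse number as a block 0 genes were called in each comparison, and unadjusted p under 0.05 fell to 13 genes in EKO, 39 in MKO and 7 in EMdKO against control. Over the 13 gene lists, edgeR calls with 1 library left out ran from 0 to 20 in EKO against MKO (8 with all), 0 to 4 in EKO against control and 0 to 2 in EMdKO against MKO (0 with all in both). Depth limits genes near 0.248 to 0.431 CPM, the level of 3 counts.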

Other observations

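Some mice with like sums differed in how many of the genes were detected. EMdKO mouse 1 and MKO mouse 2 had 190.7 and 190.3 CPM over the 70 genes, with 47 and 19 genes detected. EKO mouse 4 had 225.6 CPM and 45 genes, and control mouse 4 had 187.5 CPM and 18 genes. Krt75 made up 57.5% of the sum in EMdKO mouse 1 and 46.4% in EKO mouse 4, against 81.9% in MKO mouse 2 and 79.0% in control mouse 4. In EKO mouse 4 the glycine-tyrosine KAPs held 28.4 CPM, against 0 in control mouse 4, while Krt71 stood at 7.09 CPM against 0. In EMdKO mouse 1 the type I inner root sheath keratins held 20.4 CPM, against 2.28 in MKO mouse 2.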
